A study of Mus musculus with 9 samples.

Results

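The genes described here are 10 transcription factor genes of hematopoietic progenitors, which are Runx1, Gata1, Gata2, Tal1, Lmo2, Myb, Gfi1, Gfi1b, Meis1 and Erg. They were picked by name, and all 10 were found among the 37273 genes of the GENCODE M1 annotation of mouse build NCBIM37 (mm9). The study mapped the deubiquitinase BAP1 by ChIP-Seq in Ba/F3, a mouse line of B cell precursor type that needs IL-3 to grow. Of its 9 samples, 2 lie behind the peak list used here. One is wild type Ba/F3 immunoprecipitated with 52.8 μg of an anti-BAP1 antibody, and the other is Ba/F3 with stable expression of murine BAP1 carrying a triple FLAG tag, kept under puromycin and immunoprecipitated with 5 μg of anti-FLAG M2. Each was sequenced once, and the tagged line expresses BAP1 beyond the product of its own gene. The authors deposited 1 list of 13164 peaks for both samples together, so the list does not say in which of them a peak was found, and no value below has a replicate error. Every peak is 200 bp wide and carries no height, so it can be present or absent at a gene but not strong or weak. Sequencing depth is unknown from the list, and a peak that is missing was not detected at this depth and threshold. RNA levels in Ba/F3 were not analysed here.

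These factors act together in the programs of blood stem and progenitor cells. GATA1 and GATA2 are zinc finger factors that bind the letters GATA. TAL1 is a basic helix-loop-helix protein that binds E-boxes, and LMO2 is a LIM domain adaptor that joins it to GATA factors in one complex. RUNX1, ERG (an ETS factor), MYB and the homeodomain protein MEIS1 bind many of the same enhancers, while GFI1 and GFI1B are related zinc finger repressors. BAP1 removes ubiquitin from histone H2A, a mark set by Polycomb complexes.

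A BAP1 peak lay at a start site of 5 of the 10 genes, Gata1, Gata2, Tal1, Lmo2 and Myb, where a peak was counted as gene-proximal when its middle was within 1 kb of any annotated transcription start site (TSS) of the gene. In total 17 peaks lay in one of the genes or within 50 kb of it. Of these, 6 were at the gene's own start sites, 5 were at start sites of neighboring genes and 6 were distal, meaning further than 1 kb from every annotated start site. Runx1 and Erg carried only an intronic distal peak, Gfi1b only peaks outside the gene, and Gfi1 and Meis1 had no peak in the window.

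**Figure D1:**
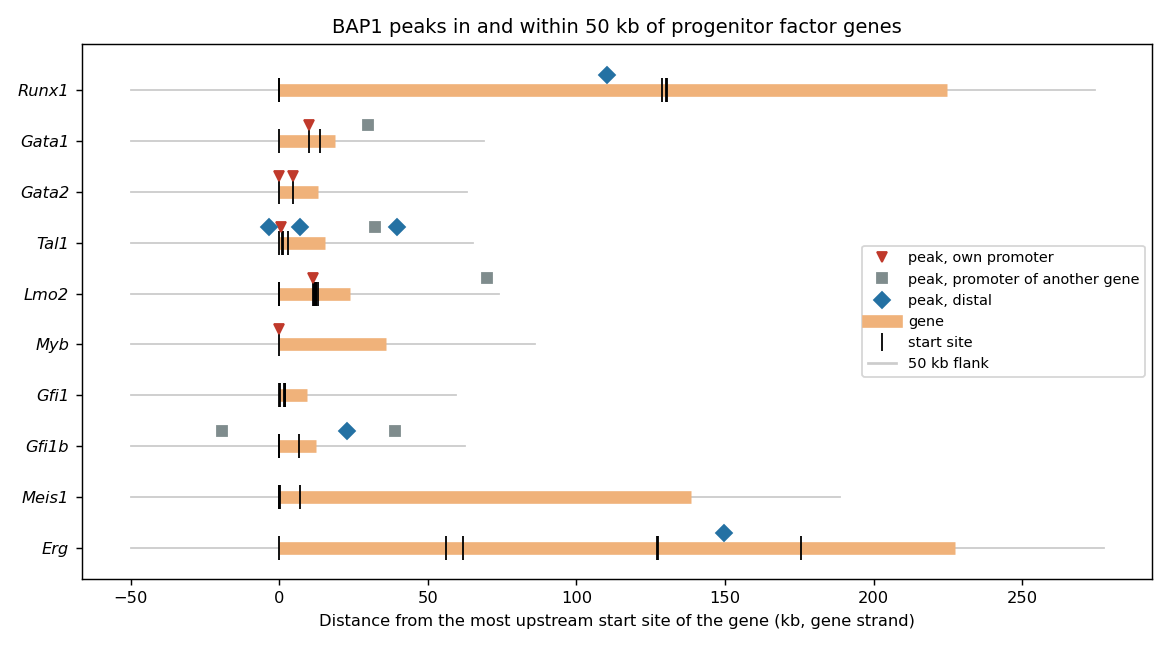
Position of each BAP1 peak in or within 50 kb of the 10 genes, in kb from the most upstream start site along the gene's strand; bars are genes, ticks are start sites, and symbols give the class of the peak. Red triangles at own start sites appear at 5 genes, and the rows of Gfi1 and Meis1 hold 0 peaks.

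The sequences under the promoter peaks are shown because these are the places where BAP1 was mapped at the genes themselves. Each is written 5′ to 3′ on the strand of the gene, read from the mm9 genome, and leaves out the part of the peak that lies in an annotated exon. Capitals mark words of the binding motifs that were searched, and adjoining words run together.

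Gata1, chrX:7545037-7545170, minus strand: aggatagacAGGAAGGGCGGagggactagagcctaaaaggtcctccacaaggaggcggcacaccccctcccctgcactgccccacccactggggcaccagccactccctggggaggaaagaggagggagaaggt

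Gata2 upstream promoter, chr6:88143638-88143837, plus strand: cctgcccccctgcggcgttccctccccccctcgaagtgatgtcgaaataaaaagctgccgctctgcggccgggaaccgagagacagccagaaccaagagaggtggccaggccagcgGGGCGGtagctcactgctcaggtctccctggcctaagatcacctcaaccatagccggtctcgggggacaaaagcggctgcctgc

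Gata2 downstream promoter, chr6:88148488-88148657, plus strand: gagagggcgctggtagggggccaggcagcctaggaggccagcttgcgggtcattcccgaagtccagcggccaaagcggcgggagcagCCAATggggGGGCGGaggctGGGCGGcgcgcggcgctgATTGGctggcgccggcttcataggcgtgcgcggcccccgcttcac

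Tal1, chr4:114729514-114729713, plus strand: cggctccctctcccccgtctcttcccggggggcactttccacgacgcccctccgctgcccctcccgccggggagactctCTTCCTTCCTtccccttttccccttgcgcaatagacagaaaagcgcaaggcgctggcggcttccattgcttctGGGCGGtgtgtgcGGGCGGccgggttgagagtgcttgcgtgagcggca

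Lmo2, chr2:103809544-103809684, plus strand: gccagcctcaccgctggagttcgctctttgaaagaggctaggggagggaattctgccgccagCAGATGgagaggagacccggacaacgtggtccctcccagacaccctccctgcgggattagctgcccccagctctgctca

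Myb, chr10:20880791-20880956, minus strand: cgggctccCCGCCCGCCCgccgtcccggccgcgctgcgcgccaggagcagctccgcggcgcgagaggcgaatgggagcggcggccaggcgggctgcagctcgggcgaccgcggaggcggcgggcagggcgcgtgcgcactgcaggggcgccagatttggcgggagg

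The distal peaks outside exons are shown next, because they lie in introns or between genes, where enhancers of blood factor genes are found. A further peak, 77.0 kb upstream of Gata2, is added to them. The other distal peaks 50 to 100 kb from the genes, near Gata2 and Gfi1b, also lie in introns or between genes. Their sequences are not shown, so the added peak is a selected example.

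Runx1 intron, chr16:92715810-92716009, minus strand: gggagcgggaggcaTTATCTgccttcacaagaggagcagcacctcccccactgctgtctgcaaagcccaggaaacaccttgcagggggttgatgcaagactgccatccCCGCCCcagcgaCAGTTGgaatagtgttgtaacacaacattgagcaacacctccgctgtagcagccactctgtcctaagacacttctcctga

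Erg intron, chr16:95658309-95658508, minus strand: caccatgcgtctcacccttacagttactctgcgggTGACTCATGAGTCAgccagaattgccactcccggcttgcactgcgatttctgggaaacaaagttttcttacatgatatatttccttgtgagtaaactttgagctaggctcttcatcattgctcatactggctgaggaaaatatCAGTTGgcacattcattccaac

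Tal1 upstream, chr4:114725410-114725609, plus strand: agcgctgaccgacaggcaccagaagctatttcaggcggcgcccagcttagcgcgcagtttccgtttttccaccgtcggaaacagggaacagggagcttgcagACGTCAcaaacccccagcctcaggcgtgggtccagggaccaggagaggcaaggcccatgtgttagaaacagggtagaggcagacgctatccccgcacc

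Tal1 downstream, chr4:114768571-114768770, plus strand: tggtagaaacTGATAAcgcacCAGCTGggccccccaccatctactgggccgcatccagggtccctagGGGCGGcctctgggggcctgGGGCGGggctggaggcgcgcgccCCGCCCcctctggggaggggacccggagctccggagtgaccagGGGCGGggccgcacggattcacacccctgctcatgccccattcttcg

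Gfi1b downstream, chr2:28454652-28454851, minus strand: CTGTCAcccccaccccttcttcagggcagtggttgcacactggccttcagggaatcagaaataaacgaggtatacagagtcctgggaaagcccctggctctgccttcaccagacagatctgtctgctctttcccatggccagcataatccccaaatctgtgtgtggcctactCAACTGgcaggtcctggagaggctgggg

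Gata2 far upstream, chr6:88066751-88066950, plus strand: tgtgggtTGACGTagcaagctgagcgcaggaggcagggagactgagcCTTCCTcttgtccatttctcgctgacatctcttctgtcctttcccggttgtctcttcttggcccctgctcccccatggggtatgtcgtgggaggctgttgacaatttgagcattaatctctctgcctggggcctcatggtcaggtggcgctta

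Among the GATA factors, Gata1, the erythroid and megakaryocytic factor (ENSMUSG00000031162.8, minus strand of chromosome X, 7536386 to 7555197), has 3 annotated start sites. The peak at 7544971 to 7545170 covered the middle one, that of transcript Gata1-001, with its middle 34 bp upstream. The start site of Gata1-002, 10.1 kb upstream of the peak's middle, and that of Gata1-003 had no peak within 1 kb. The only other peak in the window was at the start site of Hdac6, which encodes a cytoplasmic deacetylase, with its middle 214 bp upstream of it.

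Gata2, which maintains stem and progenitor cells (ENSMUSG00000015053.8, plus strand of chromosome 6, 88143885 to 88157024), carried a peak at both of its start sites. The first, at 88143638 to 88143837, had its middle 148 bp upstream of transcript Gata2-202. The second, at 88148488 to 88148687, had its middle 71 bp upstream of Gata2-201 and covered that start site, which lies 4773 bp downstream of the first. Gata2 was the only one of the 9 genes with start sites over 2 kb apart that had promoter peaks over 2 kb apart. Among 8011 protein-coding genes with such start sites, 3.16% had them. No further peak lay within 50 kb, but 2 distal peaks lay 77.0 and 87.7 kb upstream of the first start site, both between genes. An enhancer of Gata2 is known far upstream of the gene, and whether either peak coincides with it was not tested.

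For the partners TAL1 and LMO2, Tal1 (ENSMUSG00000028717.6, plus strand of chromosome 4, 114729031 to 114744360) had the most peaks of the 10 genes, 5. Its promoter peak, at 114729514 to 114729713, lay between start sites, 582 bp downstream of that of Tal1-001 and 430 bp upstream of that of Tal1-002. It covered none of the 4 start sites and lay in the first intron of Tal1-001. A distal peak lay 3522 bp upstream of the first start site. Another lay 6.86 kb downstream of it, over a coding exon of Tal1, with a GC content of 75.0%. The fourth peak was at the start site of Pdzk1ip1, the next gene downstream, with its middle 115 bp inside that gene. The fifth lay 39.6 kb downstream of the first Tal1 start site and 5133 bp from that of Pdzk1ip1, between genes. An erythroid enhancer of Tal1 is known to lie downstream of Pdzk1ip1, and its overlap with this peak was not tested. A number of peaks below 5 was found at 86.5% of all protein-coding genes, and the median over these genes was 1.0 peaks against 1.5 over the 10 members.

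Lmo2 (ENSMUSG00000032698.8, plus strand of chromosome 2, 103798143 to 103822035) has 10 annotated start sites. The peak at 103809544 to 103809743 covered those of Lmo2-005 and Lmo2-202, with its middle 42 bp upstream of the first of them, and 7 start sites lay within 1 kb of it. The most upstream promoter, at Lmo2-007 and Lmo2-203, was 11.5 kb away and had no peak, and that of Lmo2-003 was 1693 bp downstream of the peak's middle. The second peak in the window lay 56.6 kb from the nearest Lmo2 start site, at the shared start region of Fbxo3, an F-box protein gene, and 4931422A03Rik.

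Myb, a factor of progenitor proliferation (ENSMUSG00000019982.7, minus strand of chromosome 10, 20844736 to 20880790), has 1 annotated start site. The peak at 20880757 to 20880956 covered it, with its middle 66 bp upstream, and it was the only peak in the window. Enhancers of Myb are known in the region upstream of the gene, and no peak was listed there up to 100 kb away.

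Over the 5 genes, all 6 promoter peaks had their middle upstream of the nearest start site of the gene, by 34 to 430 bp with a median of -68.5 bp, and 4 of them covered a start site. The matching shares over all gene-proximal peaks are not given here, so nothing particular to these genes is read from these positions.

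**Figure D2:**
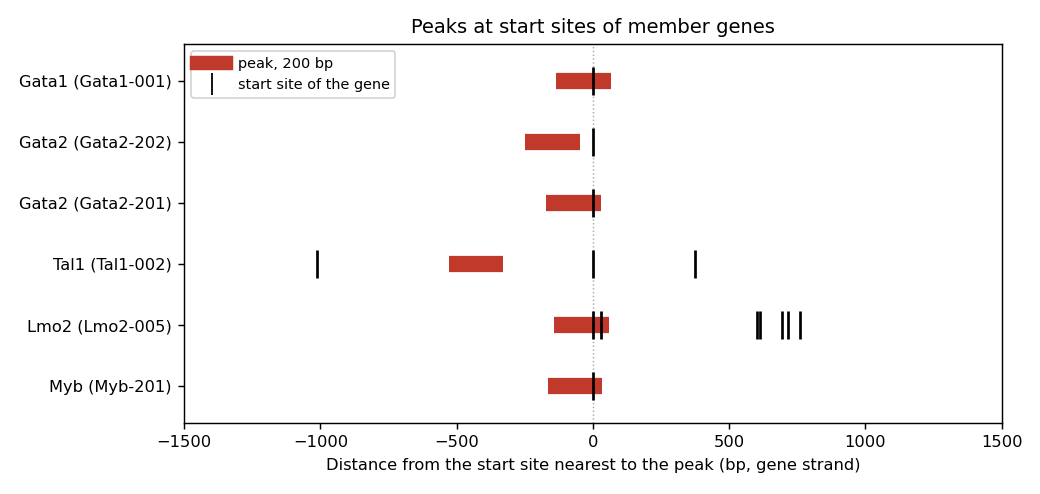
The 6 promoter peaks (red bars, 200 bp wide) in bp from the start site nearest to the peak's middle, along the strand of the gene; ticks are annotated start sites of that gene within the plotted range. The Gata1 and Myb peaks and the downstream Gata2 peak each cover 1 start site, the Lmo2 peak covers 2, and the upstream Gata2 and the Tal1 peaks cover 0.

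Runx1 (ENSMUSG00000022952.9, minus strand of chromosome 16, 92601712 to 92826311), the DNA-binding partner of CBFB and a factor needed for blood stem cells to arise, is transcribed from a distal and a proximal promoter. Neither had a peak. The only peak, at 92715810 to 92716009, lay in the intron between them, 110402 bp downstream of the distal start site of Runx1-201 and 18336 bp upstream of the proximal start site of Runx1-203.

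Erg (ENSMUSG00000040732.11, minus strand of chromosome 16, 95580776 to 95808200) has 6 start sites spread over the gene and had no peak at any of them. Its peak, at 95658309 to 95658508, was in the first intron of Erg-001, 22.5 kb downstream of the nearest start site and 150 kb downstream of the most upstream one. Runx1 and Erg are the longest of the 10 genes, at 225 and 227 kb, and each had fewer peaks per Mb of gene and flanks, 3.08 and 3.05, than the median of 9.38 over protein-coding genes.

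The repressor gene Gfi1b (ENSMUSG00000026815.8, minus strand of chromosome 2, 28464970 to 28477502), needed for erythroid and megakaryocytic cells, had 3 peaks around it and none at its 3 start sites. One covered the start site of Tsc1, which encodes a negative regulator of growth signaling, 19.3 kb upstream of Gfi1b. Another lay 11 bp from that of Gtf3c5, a subunit gene of a general factor for RNA polymerase III. The third, at 28454652 to 28454851, was distal and lay between genes, 22.8 kb downstream of the most upstream Gfi1b start site.

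Gfi1 (ENSMUSG00000029275.10, minus strand of chromosome 5, 108145674 to 108155056; listed as a processed transcript in this annotation) had its nearest peak 126 kb from its 5 start sites. At 24.2% of protein-coding genes the nearest peak was as far or farther. For Meis1 (ENSMUSG00000020160.10, minus strand of chromosome 11, 18780433 to 18918961), a partner of HOX proteins in stem cells, the nearest peak was 901 kb away, a distance reached by 3.24% of protein-coding genes.

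Against the rest of the genome, the 5 of 10 genes with a promoter peak make up 50.0% (95% Wilson interval 23.7 to 76.3, counting error only). Of all annotated genes 26.2% had one, and of the 22367 protein-coding genes 39.6%. Both shares are inside the interval, so the count is not read as differing from the background. The genes were picked by name, so the interval is a description and not a test. A distal peak in the gene or within 50 kb was found for 4 of the 10 genes (Runx1, Tal1, Gfi1b and Erg), or 40.0% (16.8 to 68.7), against 18.8% of all genes and 22.6% of protein-coding genes. With flanks of 50 kb both shares are again inside the interval, and a longer gene has a wider window. No peak at all in the window was found for 2 of the 10, and for 34.4% of protein-coding genes. Of the 17 peaks around the members, 35.3% were distal, and of all peaks in the list 23.5% were.

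Genes with CpG-rich start sites carried a promoter peak more often across the genome, and the members are set beside that here. The CpG ratio, observed over expected within 500 bp on either side of a start site, had a median of 0.546 over protein-coding genes. When protein-coding genes were ordered by the ratio at the start site of their longest transcript and cut into 5 equal groups, 4.56% of genes in the lowest group had a gene-proximal peak, then 11.2, 38.0, 67.3 and 76.7% in the highest. Myb had a ratio of 0.849 and Gata2 had 0.767 and 0.680 at its promoters. At Lmo2 the start sites with a peak had ratios of 0.662 to 0.905, while those without had 0.165 to 0.546. At Tal1 they were 0.633 to 0.804 with a peak and 0.512 without.

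Gata1 and Runx1 went the other way, and Meis1 did in part. The Gata1 start site with the peak had a ratio of 0.229, in the group of protein-coding genes of which 11.2% had a peak. The proximal Runx1 promoter had ratios of 0.696 to 0.865 and no peak, although 76.7% of genes in the group of Runx1-203 had one. The distal Runx1 promoter had 0.342 and 0.389. Meis1 had 0.652 to 0.691 at its main start sites without a peak. That range takes in the start sites of Gata2-201 (0.680) and Lmo2-202 (0.662), which had a peak. Gfi1 had 0.491 to 0.621, Gfi1b 0.171 to 0.320 and Erg 0.187 to 0.448, also without a peak. Of the 5 genes whose longest transcript was in the upper 2 groups (Runx1, Gata2, Tal1, Lmo2 and Myb), Runx1 alone lacked a promoter peak. The longest Meis1 transcript, at 0.652, fell just below the lower bound of these groups, 0.656. Measured over 1 kb on either side, its ratio was 0.78, against 0.745 for Runx1.

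**Figure D3:**
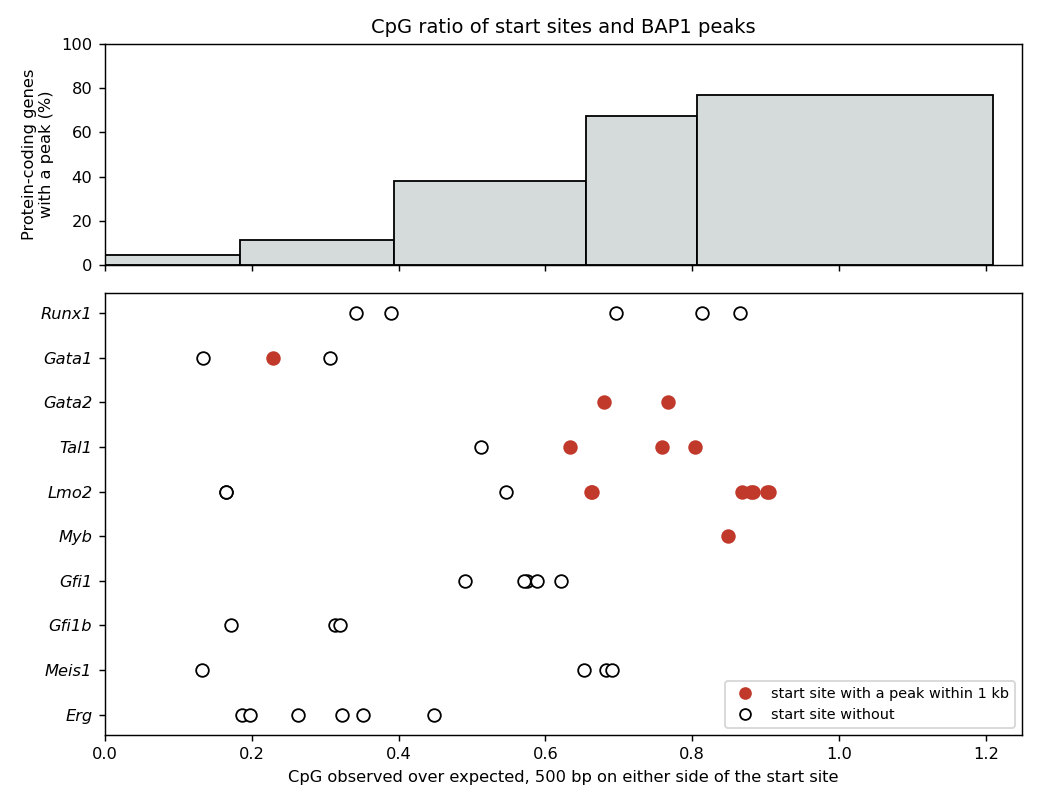
Top, share of protein-coding genes with a gene-proximal BAP1 peak in 5 equal groups by CpG ratio (bars span each group's range). Bottom, CpG ratio of every annotated start site of the 10 genes, filled where a peak lay within 1 kb. The filled Gata1 point at 0.229 lies far left of the other filled points, and the open Runx1 points reach 0.865.

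Both strands of each 200 bp peak, exon bases included, were scanned for words bound by the families of the members and by general promoter factors. The words were AGATAA or AGATAG or TGATAA or TGATAG for GATA factors, CAGCTG or CAGATG for E-boxes, TGTGGT or TGCGGT for RUNX, AGGAAG or CGGAAG for ETS, CAACTG or CAACGG for MYB, AATCAC for GFI and TGACAG for MEIS. For promoter factors they were GGGCGG (GC box), ATGGCG (YY1), GCATGCG (NRF1), TGACGT (CRE), CCAAT (NFY) and ACTACAA (ZNF143). The MYB word CAACTG also matches the general E-box CANNTG. A match is a description of the sequence, and factor binding was not measured.

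The 6 promoter peaks looked like other promoter peaks in base content, with a GC content of 64.0 to 76.0% against a median of 67.0% (quartiles 61.5 and 72.5) over the 10073 gene-proximal peaks. A GC box was in 5 of the 6, all but that of Lmo2, and in 68.6% of gene-proximal peaks. The ETS words were in those of Gata1 and Tal1, against 47.7%, and the E-box words in those of Lmo2 and the downstream promoter of Gata2, against 13.9%. The Gata2 one lies in exon bases that are not shown. The 2 CCAAT words seen above in the downstream Gata2 promoter were the only ones in the 6 peaks, a word present in 30.0% of gene-proximal peaks. None of the 6 held a GATA word (7.19% of gene-proximal peaks), a RUNX word (14.0%), a MYB word (10.6%), a MEIS word (9.72%) or a GFI word (4.68%). The words of YY1 (16.5%), CRE (10.9%), NRF1 (6.73%) and ZNF143 (2.92%) were also absent from all 6.

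Of the 6 distal peaks, 4 held a MYB word, those of Runx1, Gfi1b and Erg and the one over the Tal1 coding exon, and of all 3091 distal peaks 11.0% did. Within 400 bp around the middle it was 4 of 6, against 20.9%. That window contains the peak, so its count could not be lower. MYB was 1 of 14 motif families searched, in only 6 peaks. A GATA word was in 2 of the 6, against 16.4% of distal peaks. In the downstream Tal1 peak the word TGATAA stands ahead of the E-box CAGCTG, the only E-box word in the 6 (17.0% of distal peaks), and 4 GC boxes follow. A GC box was in 3 of the 6, against 29.6%. The Gfi1b peak also held a MEIS word (9.80% of distal peaks). The Runx1 peak held TTATCT, which is AGATAA read on the other strand. The upstream Tal1 peak held a CRE word (3.85% of distal peaks) and no word of the members' families. The Erg peak held a pair of adjoining AP-1 words, TGACTCA and its reverse complement, a word added to the search after the sequence had been seen and present in 6.76% of distal peaks. None of the 6 distal peaks held a RUNX (16.7% of distal peaks), ETS (41.7%) or GFI (5.4%) word. The 6 include the peak over the Tal1 exon, whose sequence is not shown. They do not include the far upstream Gata2 peak shown above, which holds an ETS and a CRE word. Within 400 bp, ETS words were in 2 of the 6 (64.2% of distal peaks) and RUNX words in 1 (28.6%). Over the promoter and distal peaks, 9 of 12 held at least 1 word of the 7 families of the members, and 71.1% of all peaks in the list did. An E-box followed at 6 to 10 bases by GATA, a composite site of TAL1 and GATA factors, was in 0 of the 12 promoter and distal peaks, and in 0.417% of gene-proximal and 1.26% of distal peaks. The GC content of the 6 distal peaks ran from 45.0% at Erg to 75.0% over the Tal1 exon, with a median of 58.5% against 54.0% over all distal peaks.

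The genes were set beside 4 lists chosen by name, for which only counts are given, since a chosen list gets no test. Among 17 partners and cofactors, 14 had a gene-proximal peak (82.4%, 59.0 to 93.8). These included Ldb1, which bridges LMO2 complexes, the E proteins Tcf3 and Tcf12, the GATA1 cofactor Zfpm1, the RUNX partner Cbfb, and Kdm1a, Rcor1, Hdac1 and Hdac2 of the complex recruited by GFI proteins. Among 16 paralogs of the members it was 8 (50.0%, 28.0 to 72.0), with Runx2, Runx3, Lyl1, Lmo4, Mybl1, Mybl2, Meis2 and Ets1 on one side and Gata3, Gata4, Gata5, Tal2, Lmo1, Lmo3, Meis3 and Fli1 on the other. Lyl1 counts in both of these lists. Runx1 and Meis1, which lacked a promoter peak, thus had paralogs that carried one, and Gata1 and Gata2 had paralogs that did not.

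Of 13 factors of the B lineage, 1 had a gene-proximal peak (7.69%, 1.37 to 33.3). It was Spi1, listed as Sfpi1 in this annotation, which encodes PU.1 of myeloid and B cells. Ebf1, Pax5, Ikzf1, Ikzf3, Foxo1, Spib, Irf4, Irf8, Bcl11a, Lef1, Pou2af1 and Bach2 had none. The interval of this list overlaps that of the 10 members. Of 10 factors of other lineages, among them Myod1 of muscle, Neurod1 of neurons and Hnf4a of liver, 0 had a gene-proximal peak (upper bound 27.8%) and 9 had no peak in the window. The median CpG ratio was 0.853 for the partners, with 11 of 17 genes in the upper 2 groups by CpG ratio, and 0.666 for the members, with 5 of 10. It was 0.676 for the paralogs, with 9 of 16, 0.685 for the B lineage factors, with 7 of 13, and 0.567 for the factors of other lineages, with 3 of 10. The partners had the highest share of genes with a peak and the highest ratio, and the factors of other lineages had the lowest of both. The B lineage factors had a lower share than the members and the paralogs at a like ratio. The lists are short and chosen by name, and whether the ratio bears on these shares was not tested. The median number of peaks in the window was 4.0 for the partners, 1.5 for the members and the paralogs, 1.0 for the B lineage factors and 0.0 for the factors of other lineages.

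**Figure D4:**
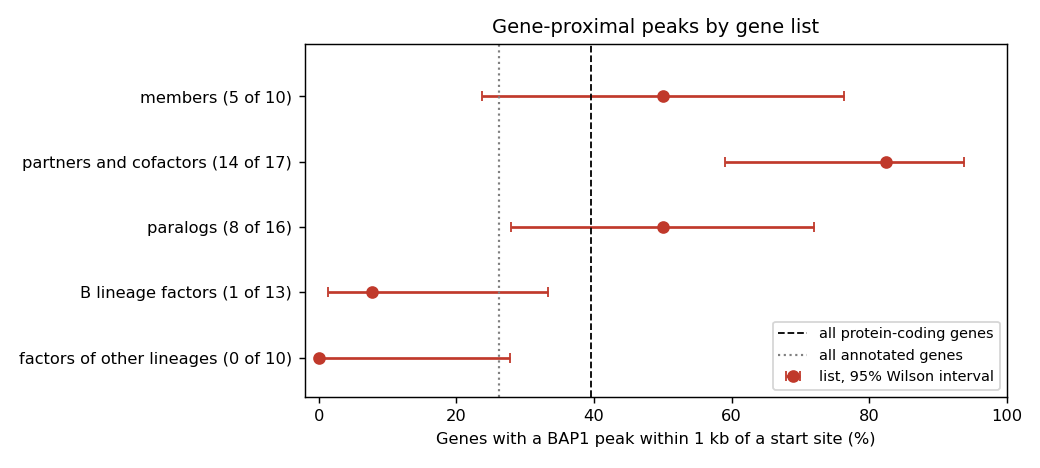
Share of genes with a BAP1 peak within 1 kb of a start site, in percent, for the 10 members and 4 other lists (points, with 95% Wilson intervals for counting error); the dashed and dotted lines are all protein-coding and all annotated genes. The members at 50.0% span both lines, and the partners reach 82.4%.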

How the data were processed

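BAP1 ChIP-Seq of Ba/F3 cells was analysed from 1 deposited peak list. Reads had been aligned by the authors to mm9 (Bowtie 1.0.0, per the submitters' processing notes), and input DNA was the control for peak calling (MACS 1.4.2). The deposited positions, in bp, fill 4 columns with chromosome and name, and are neither scores nor counts. The threshold and the rule that joined both samples were not given in the sources used here, and would change which genes carry a peak. The input and H2AK119ub samples were not analysed here.

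Positions were compared with GENCODE M1 (NCBIM37, without mitochondrial genes), using the middle of each peak (start + 100), a window of 1 kb and flanks of 50 kb. Sequences were read from the NCBIM37 genome. Spi1 was matched by an older symbol. Shares have 95% Wilson intervals that cover counting error only. The genes, lists and words were chosen with earlier results of these data known, and the AP-1 word after its sequence was seen. The text names all members and the neighbors with a peak at their start site within 50 kb. Of such neighbors 50 to 100 kb away it names only Stil and Suv39h1. It also names genes of the lists, of which some are counted but not reported by name here. No test was made on a list. Scripts were tested on simulated data, and 2000 of 2000 random positions had the signed distance of bedtools. The software was Python 3.11.15, numpy 2.4.6, pandas 2.3.3, pysam 0.24.0 and scipy 1.17.1.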

Additional observations from a re-analysis of the deposited data

How the results depend on the processing

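The count of genes with a promoter peak was 5 of 10 under each of the alternatives tried, which were the edge of the peak, one start site per gene, start sites of protein-coding transcripts, merging within 500 bp, and windows of 500 bp or 2 kb, and the same genes carried it. The count with a distal peak stayed at 4 except with one start site per gene or flanks of 100 kb, where Gata2 was added to make 5. The share of protein-coding genes with a distal peak moved with the setting. With flanks of 20 kb it was below the interval given above for 4 of 10 genes. At the other settings that kept the count at 4 it was inside that interval. The reading of the distal count against the background therefore depends on the flank. The number of peaks around the genes was 14 with flanks of 20 kb and 30 with flanks of 100 kb, against 17 with 50 kb and also with the edge of the peak or merging, since a wider flank takes in more neighbors. A word of the members' own families was in 9 of the 12 promoter and distal peaks, in 10 within 400 bp (90.7% of all peaks), and in 9 with the AP-1 word added. The median CpG ratio of the genes was 0.666, and 0.674 with 1 kb on either side. No paired analysis was possible because the list joins both samples and no test was made. A stricter peak threshold could not be tried, as the list has no score. Depth is unknown, so a missing peak means only that none was detected at this depth and threshold.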

Other observations

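Between 50 and 100 kb from the genes lay 13 further peaks, of which 8 were at start sites of other genes and 5 were distal. Beside the 2 upstream of Gata2, 3 distal peaks lay in introns of Ralgds, 84.1 to 92.0 kb from the end of Gfi1b. AP-1 words, which were searched after the Erg peak had been seen, were in 2 of these 3 and in neither of the 2 upstream of Gata2. They were in 6.76% of all distal peaks. Stil, the gene upstream of Tal1, had 2 peaks at its start site, and Suv39h1, a histone methyltransferase gene, 1 at a distance of 96.7 kb from Gata1. Runx1, Lmo2, Myb, Gfi1, Meis1 and Erg had 0 peaks in this range.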
